A study of Mus musculus with 15 samples.

Results

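The genes described here are 33 mouse genes of the endoplasmic reticulum (ER) stress response and of the response driven by the transcription factor ATF4, picked by symbol from the 18804 genes of a table of raw read counts for their known roles. They comprise 15 ER chaperones and folding enzymes, 4 genes of ER-associated degradation, 8 targets of ATF4, and 6 stress sensors and regulators. The genes and their roles were chosen with earlier results of these data known. RNA was sequenced from mesenchymal stem cells of C57BL/6J mice that had been turned into white adipocytes in culture. Per the study's methods, the stem cells came from ears. All cultures lost bFGF from the medium when differentiation began and received FBS, methylisobutylxanthine, dexamethasone, insulin and troglitazone, later insulin with troglitazone, and finally FBS alone. The study's methods name troglitazone for the adipocyte precursors but rosiglitazone under cell culture, so which agent was used is uncertain. The 5 day 0 libraries came from adipocytes kept at 37°C throughout, the 5 day 1 libraries from adipocytes moved to 31°C on day 15 of differentiation, and the 5 day 12 libraries from cells moved to 31°C on day 4. Every culture was harvested on day 16. The day 12 cells therefore passed most of their differentiation at 31°C, and length of cooling and stage at the move cannot be told apart. Since no source states that replicates were grown from different animals or in different dishes, the p-values measure only the spread among these libraries, which may be technical.

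The ER folds secreted and membrane proteins with the help of chaperones, lectins that hold glycoproteins, and enzymes that form disulfide bonds. When unfolded proteins build up there, the sensors IRE1 (gene Ern1), PERK (Eif2ak3) and ATF6 start the unfolded protein response: ATF6 and spliced XBP1 switch on chaperone and degradation genes, while PERK phosphorylates the translation factor eIF2α, which lowers translation in general but raises translation of the Atf4 mRNA. ATF4 is also reached by kinases that sense amino acid lack, viral RNA or heme, and it drives genes of amino acid supply, redox balance and cell death. Adipocytes secrete large amounts of adiponectin and other proteins through the ER. The measurements below are mRNA levels. They do not show cleavage of ATF6, phosphorylation of PERK or eIF2α, or ATF4 protein, and counts per gene do not separate spliced from unspliced Xbp1.

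The libraries held 92387376 to 133270973 counted reads in the day 0 group, 74430465 to 105322757 in the day 1 group and 64648178 to 91338649 in the day 12 group, and each of the 33 genes had at least 501 reads in every library. Levels are given as CPM, the counts scaled to library size with TMM factors. The 7 adipocyte markers (Adipoq, Plin1, Fabp4, Cidec, Lipe, Pparg and Cebpa) were present in every library and summed to 2567 to 2887 CPM at day 0, 3172 to 3390 CPM at day 1 and 2742 to 2985 CPM at day 12. These sums hold members that moved apart. At day 1 Cidec, a lipid droplet protein, was 6.13-fold lower and Fabp4, a fatty acid carrier, 1.69-fold higher than at day 0, and the other 5 were not called by the rule given below. At day 12 Cidec was again called lower, with a log2 fold change of -1.59. Adipoq, which encodes adiponectin, was 2.36-fold lower at day 12, and Pparg, the transcription factor that drives adipocyte differentiation, 1.51-fold lower, while Fabp4 was 1.95-fold higher. The 3 brown adipocyte markers Ucp1, Cox8b and Cidea had 0 to 16 reads each in a library and summed to at most 0.278 CPM in any library. Markers of other cells also moved. The 5 proliferation markers summed to 50.8 to 62.7 CPM at day 0, 60.04 to 72.1 CPM at day 1 and 157 to 190.7 CPM at day 12, and all 5 were higher at day 12 than at day 0. The 7 mesothelial and epithelial markers summed to 9.90 to 11.4, 12.8 to 15.1 and 29.7 to 43.9 CPM in the same order, with Msln going from a mean of 0.628 CPM at day 0, where it had 28 to 122 reads, to 29.3 CPM at day 12, and 1 of the 4 that were tested was higher at day 12. The 8 fibroblast and progenitor markers summed to 3893 to 4265, 3475 to 3718 and 3103 to 3459 CPM. This sum also holds members that moved apart. From day 0 to day 12 the mean of Col1a1 went from 2649 to 1975 CPM and that of Ly6a from 591 to 221 CPM. Pdgfra went from 562 to 712 CPM and Pdgfrb from 131 to 184 CPM. Of the 6 tested, 3 had a log2 fold change above 0 and 3 below 0 at day 12. The 6 macrophage markers summed to 26.5 to 33.7, 42.4 to 48.4 and 29.99 to 34.3 CPM, and the 5 endothelial markers to at most 1.77 CPM. Their part in the results below was not tested. In bulk RNA, fewer cells of a type and less RNA per cell cannot be told apart.

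To find which genes moved within a day of cooling and which differed after 12 days, each cooled group was compared with day 0 by edgeR's quasi-likelihood test, fitted to the 14293 genes that passed a filter on low counts. A gene was called where its Benjamini-Hochberg adjusted p over all genes tested was under 0.05 and its fold over 1.5. All 33 genes passed the filter. The adjusted p alone was passed by 71.55% of all genes tested at day 1 and by 76.61% at day 12. Groups without overlap, given below for single genes, are not set beside a share of all genes. At day 1, 13 of the 33 genes were lower and 1 was higher, where 13.4% of all genes tested were called lower and 7.71% higher. At day 12, 17 of the 33 were lower and 0 were higher, against 16.2% and 13% of all genes. With library totals in place of TMM factors, 11 of the 33 were lower and 2 higher at day 12, beside 1668 lower and 2982 higher of all 14293 genes. The median log2 fold change over the 33 genes was -0.38 at day 1 and -0.60 at day 12, where the median over all genes tested was -0.009 and 0.012. Both comparisons share the day 0 libraries. That scaling moved the median of all genes at day 12 to 0.205. The share of lower genes among all those called at day 12 was 55.6% with TMM and 35.9% with total counts. Because the 33 genes were chosen with earlier results known, their distance from the shares of all genes is a description and not a test.

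By role, most of the called genes were chaperones. Of the 15 ER chaperones and folding enzymes, 10 were lower at day 1 and 11 at day 12, with 0 higher, and their median log2 fold change was -1.20 at day 1 and -0.88 at day 12. All 15 had a log2 fold change below 0 in both comparisons, although with total counts Dnajb9 at 0.039 and Dnajb11 at 0.087 were above 0 at day 12. Of the 8 ATF4 targets, 2 were lower at day 1 and 3 at day 12, with medians of -0.17 and -0.41. Of the 4 degradation genes, 1 was lower at day 1 and 2 at day 12. Among the 6 sensors and regulators, Atf4 was the only one higher at day 1 and Xbp1 the only one lower at day 12. Whether the roles differ from each other was not tested. Each count stands beside the shares of all genes given above.

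**Figure D1:**
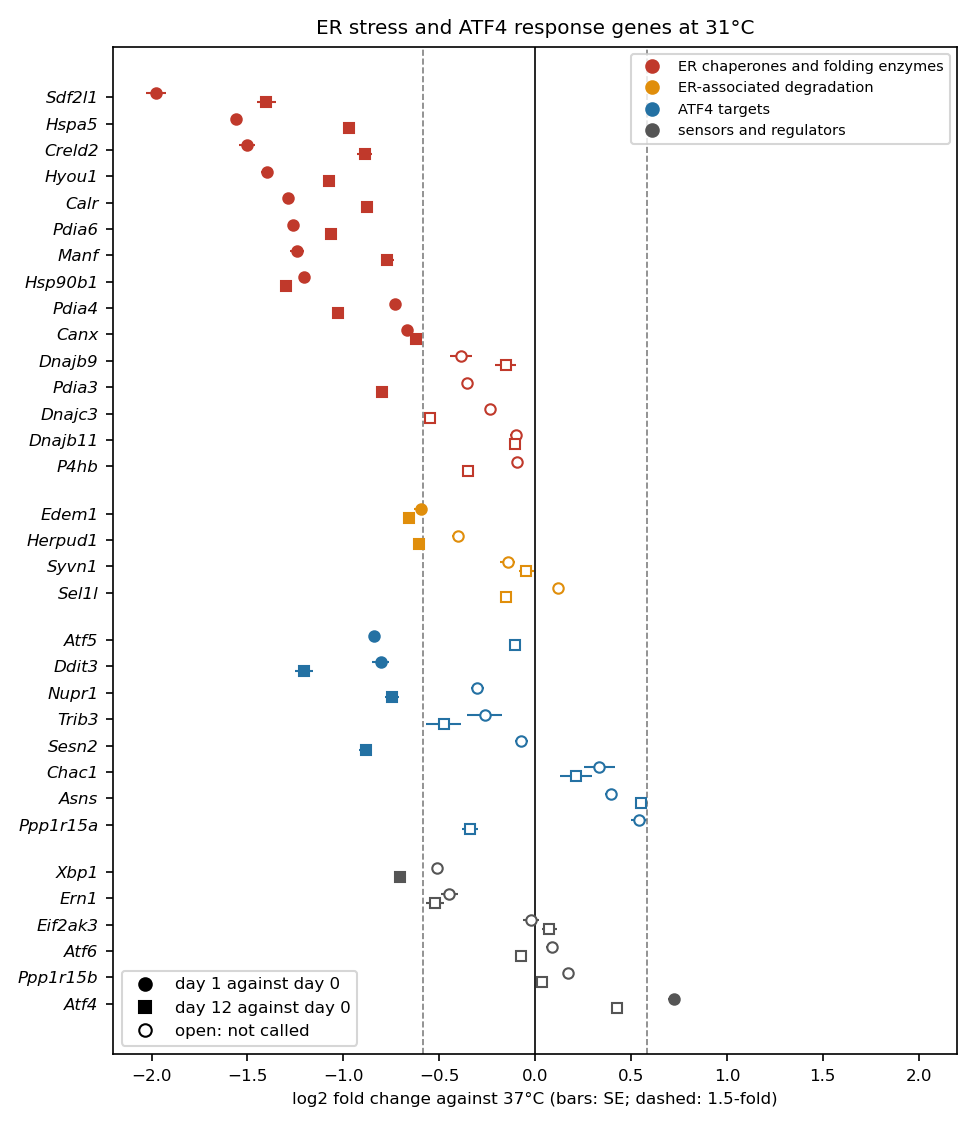
Log2 fold change against 37°C (x axis) of each of the 33 genes (y axis, grouped and coloured by role), with circles for day 1, squares for day 12, bars for the standard error, filled symbols for called changes and dashed lines at a fold of 1.5. The 10 chaperones called at day 1 lie between -1.98 and -0.67, and the only filled symbol above 0 is Atf4 at day 1.

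Summed over the 15 chaperones and folding enzymes, levels were 9132 ± 132 CPM at day 0 (SD, n = 5), 5174 ± 40.2 CPM at day 1 and 5118 ± 64.6 CPM at day 12. The lowest day 0 library stood at 8966 CPM and the highest cooled library at 5234 CPM, so the groups were far apart. This sum weighs the most abundant genes most and is a description, with no test of its own.

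Hspa5 (chr2:34771970-34777547, plus strand, mm10) encodes BiP, the main Hsp70 chaperone of the ER and the protein that holds the sensors inactive. In replicates 1 to 5 it stood at 1289, 1239, 1253, 1228 and 1318 CPM at day 0, at 429.5, 428, 425, 426 and 438 CPM at day 1 and at 648, 637, 639, 626 and 678 CPM at day 12. The 3 groups did not overlap, with day 1 lowest and day 12 between the others. Hspa5 was 2.95-fold lower at day 1 (log2 fold change -1.56, SE 0.027, adjusted p = 6.36e-23) and 1.96-fold lower at day 12 (log2 fold change -0.97, SE 0.027, adjusted p = 6.06e-20). Hyou1 (chr9:44379490-44392369, plus strand), a nucleotide exchange factor that recharges BiP, had the same order of groups. It stood at 198, 179.7, 187, 182 and 197 CPM at day 0, 72.6, 73.2, 72.0, 69.2 and 71.2 CPM at day 1 and 87.2, 92.9, 88.0, 89.9 and 90.3 CPM at day 12. It was 2.64-fold lower at day 1 (adjusted p = 2.51e-21) and 2.11-fold lower at day 12 (adjusted p = 9.04e-20).

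Hsp90b1 (chr10:86690209-86705509, minus strand) encodes GRP94, the Hsp90 of the ER. It stood at 1506, 1504, 1522, 1462 and 1511 CPM at day 0, 668, 649, 648, 658 and 638 CPM at day 1 and 596, 594, 626, 613 and 625 CPM at day 12. Here day 12 was the lowest group, at 2.46-fold lower than day 0 (log2 fold change -1.30, SE 0.025, adjusted p = 5.61e-23), after 2.30-fold lower at day 1 (adjusted p = 5.68e-22). In GENCODE M21 15.7% of its exon sequence overlaps other genes, among them 1810014B01Rik on the opposite strand, and the strand setting of the counting is not given in the sources used here, so reads of these genes cannot be told apart. Calr (chr8:84841850-84846934, minus strand) encodes calreticulin, a lectin chaperone that binds calcium. It stood at 1536, 1487, 1494, 1523 and 1546 CPM at day 0, 627, 613, 609.9, 631 and 631 CPM at day 1 and 796, 816, 849, 838 and 829 CPM at day 12. That is 2.44-fold lower at day 1 (log2 fold change -1.29, SE 0.025, adjusted p = 2.1e-22) and 1.84-fold lower at day 12 (adjusted p = 7.58e-20), again without overlap of the groups.

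Sdf2l1 (chr16:17130138-17132383, minus strand), an ER protein found in complexes with BiP and its J-domain partner Dnajb11, had the largest fold changes of the 33 genes against day 0. It stood at 30.9, 27.3, 30.2, 32.2 and 31.3 CPM at day 0, 6.94, 7.62, 7.67, 8.19 and 8.20 CPM at day 1 and 11.2, 10.99, 12.1, 11.4 and 11.9 CPM at day 12. It was 3.93-fold lower at day 1 (log2 fold change -1.98, SE 0.053, adjusted p = 1.09e-19) and 2.64-fold lower at day 12 (log2 fold change -1.40, SE 0.051, adjusted p = 1.01e-17). Creld2 (chr15:88819646-88826683, plus strand) encodes an ER protein induced by ER stress, and Manf (chr9:106838312-106891979, minus strand) a BiP-binding protein of the ER that is also secreted. Creld2 stood at 49.6, 48.9, 46.5, 50.9 and 55.9 CPM at day 0, 18.1, 17.7, 17.5, 18.3 and 17.4 CPM at day 1 and 25.9, 27.8, 28.4, 27.0 and 26.9 CPM at day 12. Manf stood at 112, 104, 102, 113 and 116 CPM at day 0, 46.1, 45.1, 46.6, 48.3 and 45.4 CPM at day 1 and 64.4, 66.4, 63.4, 62.8 and 64.0 CPM at day 12. Both therefore had day 1 as the lowest group and no overlap, as for Hspa5. Creld2 was 2.83-fold lower at day 1 (adjusted p = 2.68e-19) and 1.85-fold lower at day 12 (adjusted p = 1.12e-15). Manf was 2.36-fold lower at day 1 (adjusted p = 2.56e-19) and 1.71-fold lower at day 12 (adjusted p = 5.67e-16), though with total counts its log2 fold change at day 12 was -0.58 and no longer called. Exons of other genes overlap 9.25% of the exon sequence of Manf.

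The protein disulfide isomerases, which form and rearrange disulfide bonds, ranged from strongly lower to not called. Pdia6 (chr12:17266545-17284770, plus strand) stood at 626, 594, 603, 606 and 612 CPM at day 0, 259, 249, 248, 252 and 261 CPM at day 1 and 285, 293, 291, 289 and 296 CPM at day 12. It was 2.40-fold lower at day 1 (log2 fold change -1.26, SE 0.025, adjusted p = 2.62e-22) and 2.09-fold lower at day 12 (adjusted p = 1.94e-21). For Pdia4 the mean went from 413 ± 7.15 CPM (SD, n = 5) to 249.5 ± 7.56 and 203 ± 2.29 CPM, and it was called lower in both comparisons, with day 12 the lower of the cooled groups. Pdia3, which works with calreticulin and calnexin on glycoproteins, went from 1345 ± 25.4 to 1053 ± 15.6 and 774 ± 16.7 CPM and was called at day 12 only, at 1.74-fold lower (adjusted p = 3.17e-19). P4hb, the most abundant isomerase per exon length in cooled cells, went from 1226 ± 41.5 to 1149 ± 21.6 and 963 ± 3.90 CPM and was not called, with log2 fold changes of -0.094 and -0.35.

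Canx, which encodes the membrane lectin chaperone calnexin, stood at 574 ± 12.8 CPM at day 0, 361 ± 9.43 CPM at day 1 and 373 ± 10.1 CPM at day 12 and was called lower in both comparisons, by 1.59-fold and 1.54-fold. With total counts its log2 fold change at day 12 was -0.43 and not called. The 3 J-domain partners of BiP were not called in any comparison. Dnajb9 had log2 fold changes of -0.38 and -0.15, Dnajb11 of -0.10 and -0.11, and Dnajc3 of -0.23 and -0.55, at day 1 and day 12 in that order. Dnajb11 libraries ranged from 82.8 to 91.0 CPM at day 0 and from 77.6 to 85.5 CPM in the cooled groups, which overlap.

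**Figure D2:**
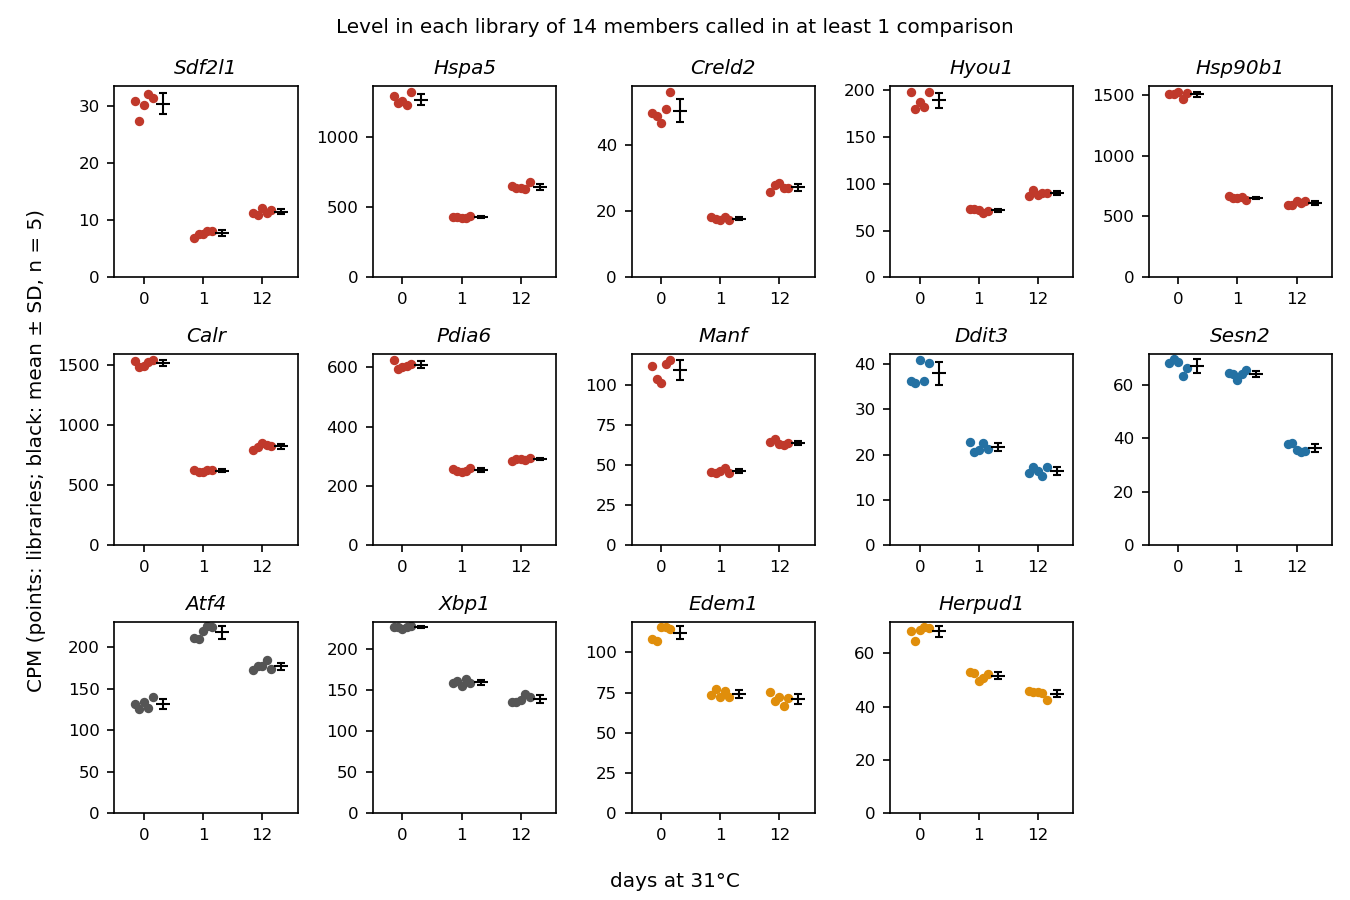
CPM (y axis, from 0) in each library (coloured points) of 14 of the 33 genes by days at 31°C (x axis), with the mean and SD of each group of 5 in black. In the 8 chaperones day 0 lies above both cooled groups without overlap, and Atf4 is the gene whose day 0 libraries, at 126 to 140.0 CPM, lie below both.

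The promoters of several chaperones carry the ER stress response element (ERSE), the motif bound by ATF6 together with the factor NF-Y. RefSeq promoter windows on GRCm38.p6 (the mm10 assembly), from 250 bases before to 50 bases after each gene's start, were matched by symbol for 29 of the 33 genes, leaving out Hyou1, Manf, Atf6 and Ppp1r15b. The ERSE was searched on both strands as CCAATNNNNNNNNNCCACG, where N is any base. It occurred in 39 of 32851 windows, or 0.119%. Among the 29 genes it occurred in 8: 7 of the 13 chaperones with a window and Syvn1 of the 4 degradation genes, but in 0 of 8 ATF4 targets and 0 of 4 sensors and regulators. The matches of the called chaperones with their neighbouring bases are printed here because these genes include the largest declines of abundant chaperones. Capitals mark the fixed letters of the motif, read 5′ to 3′ along the gene's strand, so that a match on the other strand appears as CGTGG and ATTGG:
Hspa5, chr2:34772020-34772048, + strand, motif 65 to 47 bases before the start: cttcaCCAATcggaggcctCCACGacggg
Hsp90b1, chr10:86705618-86705676, - strand, motif 212 to 194 bases before the start: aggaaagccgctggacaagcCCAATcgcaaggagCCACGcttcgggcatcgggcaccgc
Hsp90b1, chr10:86705513-86705571, - strand, motif 107 to 89 bases before the start: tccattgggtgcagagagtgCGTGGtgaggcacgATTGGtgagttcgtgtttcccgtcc
Calr, chr8:84847055-84847113, - strand, motif 162 to 144 bases before the start: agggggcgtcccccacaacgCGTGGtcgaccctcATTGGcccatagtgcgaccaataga
Creld2, chr15:88819500-88819558, + strand, motif 126 to 108 bases before the start: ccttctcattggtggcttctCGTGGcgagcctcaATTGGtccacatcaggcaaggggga
Pdia6, chr12:17266471-17266529, + strand, motif 98 to 80 bases before the start: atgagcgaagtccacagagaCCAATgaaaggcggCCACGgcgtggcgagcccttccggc
Canx, chr11:50325780-50325838, - strand, motif 145 to 127 bases before the start: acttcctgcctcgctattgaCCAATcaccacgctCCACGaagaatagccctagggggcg
The stretch for Hspa5 is shorter because a GENCODE transcript that starts further upstream places it in an exon. For comparison, these are the matches of Dnajc3 and Syvn1, which were not called in any comparison:
Dnajc3, chr14:118937807-118937865, + strand, motif 105 to 87 bases before the start: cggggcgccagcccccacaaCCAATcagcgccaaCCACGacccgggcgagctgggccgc
Syvn1, chr19:6046512-6046570, + strand, motif 44 to 26 bases before the start: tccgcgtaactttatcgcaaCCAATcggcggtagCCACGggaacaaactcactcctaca

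Of the 8 genes with an ERSE match, 6 were lower at day 1 and 6 at day 12, with median log2 fold changes of -1.23 and -0.88. Of the 21 with a window but no match, 5 were lower at day 1 and 9 at day 12, with medians of -0.30 and -0.48. These sets differ in role, since most genes with a match are chaperones. Among chaperones with a match, 6 of 7 were lower at day 1 and 6 at day 12, with medians of -1.26 and -0.89. Among those without, 2 of 6 were lower at day 1 and 3 at day 12, with medians of -0.37 and -0.57. Whether the sets differ was not tested. Of all 10089 tested genes with a window, 13% were lower at day 1 and 15.8% at day 12. Sdf2l1, with the largest change, had no match in its window. The motif was also found in windows of 29 other genes, of which 11 were tested. Of these 11, 4 were lower at day 1, and 5 were lower and 2 higher at day 12. A match is a description of letters, and binding was not measured. The window of Herpud1 held the related ERSE-II, searched as ATTGGNCCACG, which was found in 12 windows, or 0.0365%. Dnajb11 also had one, after its start. The core of the unfolded protein response element, TGACGTGG, was in 222 windows (0.676%) and in 0 of these 29. The 3 motifs share letters, since ERSE and ERSE-II both end in CCACG and TGACGTGG ends in CGTGG, its reverse complement.

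**Figure D3:**
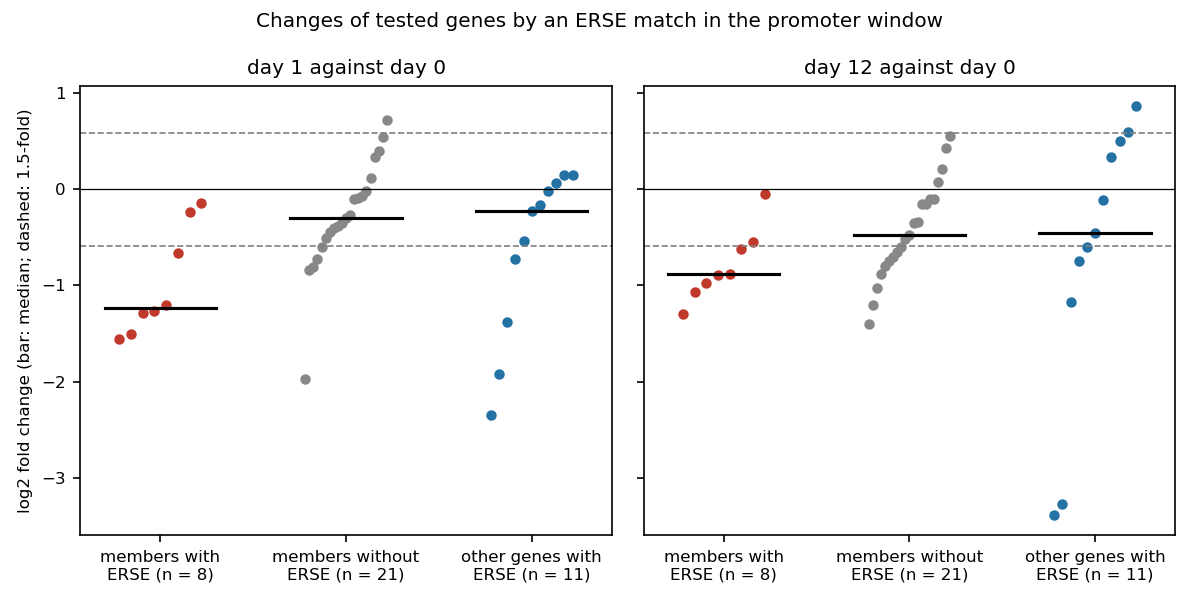
Log2 fold change (y axis) of each tested gene (points) at day 1 (left) and day 12 (right) for the 8 genes described here with an ERSE match, the 21 without one and the 11 other genes with one, with black bars at the medians and dashed lines at a fold of 1.5. At day 1 the medians are -1.23, -0.30 and -0.23, and the points of the 3 sets overlap.

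ER-associated degradation returns misfolded proteins to the cytosol for the proteasome. Edem1 (chr6:108828641-108859356, plus strand), which helps pick misfolded glycoproteins, stood at 109, 107, 116, 116 and 114 CPM at day 0, 73.5, 77.5, 72.2, 75.9 and 72.4 CPM at day 1 and 75.3, 69.9, 72.2, 66.8 and 71.9 CPM at day 12. Day 0 lay above both cooled groups, which overlapped each other. Edem1 was 1.51-fold lower at day 1 (log2 fold change -0.60, SE 0.033, adjusted p = 7.43e-14) and 1.58-fold lower at day 12 (adjusted p = 6.4e-15). These folds lie close to the limit of 1.5. Without day 1 replicate 3 the day 1 log2 fold change was -0.58 and no longer called, and with total counts neither comparison was called, at -0.58 and -0.46.

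Herpud1 (chr8:94386438-94395377, plus strand) encodes a membrane protein that helps assemble the degradation complex. It stood at 68.5, 64.6, 68.9, 69.8 and 69.4 CPM at day 0, 53.1, 52.7, 49.7, 50.6 and 52.2 CPM at day 1 and 45.9, 45.4, 45.5, 45.2 and 42.6 CPM at day 12. The groups fell in that order without overlap, but only day 12 was called, at 1.52-fold lower (log2 fold change -0.60, SE 0.031, adjusted p = 9.73e-15). Leaving out day 12 replicate 5 ended that call, at -0.58, as did scaling by total counts, at -0.41. Its window held both the ERSE-II and TTGCATCA, a core of the C/EBP-ATF response element through which ATF4 acts, shown here as the only window of the 29 with both kinds of motif:
Herpud1, chr8:94386357-94386407, + strand, motif 52 to 42 bases before the start: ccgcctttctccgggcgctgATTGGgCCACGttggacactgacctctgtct
Herpud1, chr8:94386297-94386344, + strand, motif 112 to 105 bases before the start: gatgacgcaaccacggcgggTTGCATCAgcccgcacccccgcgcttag
The ubiquitin ligase gene Syvn1 (HRD1) and Sel1l, which encodes its partner, were not called. Syvn1 ranged over 53.0 to 58.0 CPM at day 0, 49.2 to 53.3 CPM at day 1 and 50.9 to 59.6 CPM at day 12, and the groups overlapped. Sel1l ranged over 254 to 268 CPM at day 0, 273 to 292 CPM at day 1 and 233 to 239 CPM at day 12, with log2 fold changes of 0.12 and -0.15.

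Atf4 (chr15:80255184-80257541, plus strand) moved against most of the other genes. It stood at 132, 126, 134, 127 and 140 CPM at day 0, 211, 209.6, 219, 225 and 224 CPM at day 1 and 173, 177, 177, 184 and 174 CPM at day 12. All 5 day 1 libraries lay above all day 12 libraries, and these above all day 0 libraries. Atf4 was 1.65-fold higher at day 1 (log2 fold change 0.72, SE 0.031, adjusted p = 6.3e-16). At day 12 it was 1.34-fold higher (log2 fold change 0.43, SE 0.031, adjusted p = 8.21e-12), under the limit of 1.5. With total counts the day 12 log2 fold change was 0.62 and called.

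Of the 8 ATF4 targets, 0 were called higher in either comparison with day 0. Asns, Chac1 and Ppp1r15a passed the adjusted p at day 1 but with folds of 1.32, 1.26 and 1.46, under the limit. Ddit3 (chr10:127290774-127296288, plus strand) encodes CHOP, a transcription factor of the late stress response. It stood at 36.3, 35.7, 40.9, 36.3 and 40.1 CPM at day 0, 22.8, 20.7, 21.1, 22.4 and 21.2 CPM at day 1 and 15.9, 17.3, 16.3, 15.2 and 17.4 CPM at day 12. The groups fell in that order without overlap, to 1.75-fold lower at day 1 (log2 fold change -0.81, SE 0.046, adjusted p = 1.37e-13) and 2.30-fold lower at day 12 (log2 fold change -1.20, SE 0.047, adjusted p = 4.49e-17). A further gene ID with the same symbol and genes on the opposite strand, Mars among them, overlap 10.9% of its exon sequence. Sesn2 (chr4:132492032-132510501, minus strand), a stress-induced inhibitor of mTORC1, stood at 68.2, 69.7, 68.4, 63.1 and 66.0 CPM at day 0, 64.3, 64.1, 61.9, 64.0 and 65.3 CPM at day 1 and 37.7, 38.2, 35.7, 35.0 and 35.1 CPM at day 12. Day 0 and day 1 overlapped and did not pass the test (log2 fold change -0.071, adjusted p = 0.0564), while day 12 was below both, at 1.85-fold lower than day 0 (log2 fold change -0.88, SE 0.033, adjusted p = 2.17e-17).

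Atf5, a transcription factor whose translation is regulated like that of Atf4, took another course. Its mean was 113 ± 3.72 CPM at day 0, 63.3 ± 1.52 CPM at day 1 and 105 ± 3.12 CPM at day 12. It was 1.79-fold lower at day 1 (log2 fold change -0.84, SE 0.029, adjusted p = 1.44e-17), and at day 12 the groups overlapped with day 0 (log2 fold change -0.10, and 0.089 with total counts). Nupr1, a stress-induced chromatin protein, was at 118 ± 4.11, 95.6 ± 3.24 and 70.2 ± 3.68 CPM in the same order and was called lower at day 12 by 1.68-fold, but not with total counts, at -0.55. Ppp1r15a encodes GADD34, which brings phosphatase to eIF2α and so restores translation. Its level was 37.4 ± 1.06 CPM at day 0, 54.4 ± 2.24 CPM at day 1 and 29.6 ± 1.95 CPM at day 12, so that day 1 lay above day 0 and day 12 below it, with log2 fold changes of 0.54 and -0.34 that were not called.

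The remaining 3 targets were not called in any comparison. Asns, which encodes asparagine synthetase, had log2 fold changes of 0.40 at day 1 and 0.55 at day 12, with means of 43.7, 57.5 and 64.2 CPM and no overlap of the groups. With total counts its day 12 value was 0.75 and called. Trib3, a pseudokinase that binds ATF4 and CHOP, and Chac1, which degrades glutathione, had the lowest levels per exon length of the 33 genes at day 0, with means of 10.5, 8.75 and 7.53 CPM for Trib3 and 6.30, 7.96 and 7.33 CPM for Chac1. Their spread between libraries was also the widest, with a CV of 14.4% for Trib3 and 11.3% for Chac1 at day 0. The letters TTGCATCA were found in 294 windows (0.895%) and in 2 of the 8 ATF4 targets, Chac1 and Nupr1, which are printed to show the core in a target that was not called and in one that was lower at day 12:
Chac1, chr2:119351029-119351076, + strand, motif 193 to 186 bases before the start: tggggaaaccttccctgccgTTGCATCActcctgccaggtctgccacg
Nupr1, chr7:126625568-126625585, - strand, motif 110 to 103 bases before the start: ccagaTTGCATCAgacag
The stretch for Nupr1 is shorter because it lies in an exon of other GENCODE transcripts. ATF4 also binds variants of this core, and no match says only that these letters are not in the window.

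Of the sensors and their regulators, Xbp1 (chr11:5520659-5525893, plus strand), whose mRNA is spliced by IRE1, stood at 227, 227, 225, 228 and 229 CPM at day 0, 159, 161, 155, 163 and 159 CPM at day 1 and 136, 136, 138, 146 and 141 CPM at day 12. The groups fell in that order without overlap. Xbp1 was called at day 12, at 1.63-fold lower (log2 fold change -0.70, SE 0.025, adjusted p = 1.01e-17), and not at day 1, where it was 1.42-fold lower (adjusted p = 9.96e-15). With total counts the day 12 value was -0.51 and not called. Ern1 was at 42.7 ± 2.32, 31.3 ± 1.79 and 29.7 ± 1.61 CPM, with day 0 above both cooled groups and log2 fold changes of -0.45 and -0.52 that were not called. Atf6 ranged over 49.6 to 53.3 CPM at day 0, 53.4 to 56.3 CPM at day 1 and 46.4 to 51.8 CPM at day 12. Eif2ak3 had overlapping groups and log2 fold changes of -0.021 (adjusted p = 0.652) and 0.075 (adjusted p = 0.0881), and leaving out day 1 replicate 1 turned the first value to 0.0076. Ppp1r15b encodes CReP, the constitutive counterpart of GADD34, and was at 76.6 ± 1.59, 86.3 ± 1.98 and 78.6 ± 1.58 CPM, not called in any comparison. Gm26616 on the opposite strand overlaps 11.4% of its exon sequence.

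The cooled groups were also compared with each other. The day 0 libraries are not part of this contrast, but the filter, scaling and spread came from all 15 libraries. Of the 33 genes, 3 were higher and 2 lower at day 12 than at day 1, against 10.6% and 8.53% of all genes tested, and the median was -0.095 beside 0.009 for all genes. With total counts the median of the 33 genes was 0.078 and that of all genes 0.182, and the share of lower genes among all those called went from 44.7% to 27.3%. The 3 higher genes were Creld2, at 1.53-fold higher (log2 fold change 0.61, SE 0.043, adjusted p = 7.18e-12), Atf5, at 1.66-fold higher (log2 fold change 0.74, SE 0.029, adjusted p = 1.91e-16), and Hspa5. Hspa5 was 1.504-fold higher (log2 fold change 0.59, SE 0.027, adjusted p = 1.81e-15), at the limit of 1.5. Its call was lost without day 1 replicate 3, at 0.58, without day 12 replicate 5, at 0.57, with edgeR's RLE factors or with DESeq2, at 0.58 in both, and with only the libraries of the larger of the 2 number series in the labels, at 0.58. Sdf2l1, at 0.57, fell just short and was called without day 1 replicate 4, without day 1 replicate 5 or without day 12 replicate 2, at 0.59 to 0.60. It was also called with total counts, at 0.75, and with a filter at a mean of 10 CPM, at 0.60. The number series as covariate gave a call at 0.59, and the larger series alone at 0.62. The 2 lower genes were Ppp1r15a, at 1.84-fold lower (log2 fold change -0.88, SE 0.041, adjusted p = 3.19e-15), and Sesn2, at 1.76-fold lower (log2 fold change -0.81, SE 0.034, adjusted p = 3e-16). The members' shares, 9.09% higher and 6.06% lower, lay below those of all genes. Ddit3 and Nupr1, which also had their lowest group at day 12, had log2 fold changes of -0.40 and -0.45 and were not called.

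Per kilobase of annotated exon, which allows genes to be set side by side, the level at day 0 ran from 3.85 CPM per kb for Chac1 to 527 CPM per kb for Calr. The 8 most abundant genes were all chaperones or folding enzymes: Calr, Pdia3, P4hb, Hsp90b1, Hspa5, Pdia4, Pdia6 and Canx. Among the 3 sensors the day 0 levels were close, at 5.92 CPM per kb for Eif2ak3, 5.60 for Atf6 and 5.22 for Ern1. The order shifted with cooling. P4hb took the first place at day 1 with 402 CPM per kb, where Calr had 216 and Hspa5 101.5 CPM per kb. Atf4 went from place 11 at day 0 to place 7 at day 1, from 55.9 to 92.3 CPM per kb, past Pdia6 and Canx. Sdf2l1 went from place 18 to place 28, at 27.4 and 6.97 CPM per kb. Exon length was taken over all transcripts of a gene, so these levels depend on which transcripts the cells use, and no test was run on the order.

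**Figure D4:**
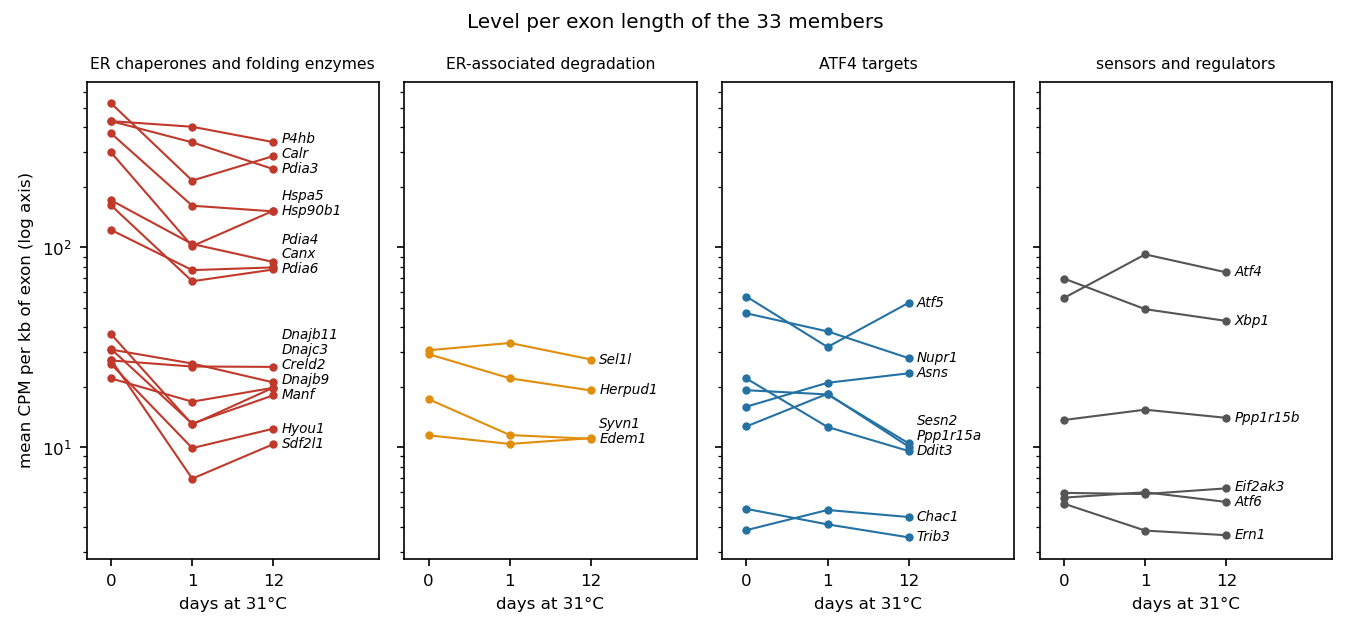
Mean CPM per kb of exon (y axis, logarithmic) of the 33 genes by days at 31°C (x axis), in 1 panel for each role, with lines joining the means of 5 libraries. The 8 genes above 100 CPM per kb at day 0 are all in the chaperone panel, and Atf4 rises from 55.9 to 92.3 CPM per kb at day 1.

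Other genes of the same pathways, taken from further lists, moved in both directions. Of 26 other ER folding and degradation genes tested, 5 were lower and 4 higher at day 1, and 6 lower and 1 higher at day 12, with medians of -0.16 and -0.052. These are 19.2% and 15.4% at day 1, beside 13.4% and 7.71% of all genes, and 23.1% and 3.85% at day 12, beside 16.2% and 13%. Ero1l, the oxidase that recharges protein disulfide isomerase and a gene induced by hypoxia, was 3.27-fold lower at day 1 (log2 fold change -1.71, SE 0.064, adjusted p = 4.72e-17) and 7.495-fold lower at day 12 (log2 fold change -2.91, SE 0.067, adjusted p = 2.01e-21). Derl3, of the degradation channel family, was 3.78-fold lower at day 1 and 10.4-fold lower at day 12 (adjusted p = 3.28e-13 and 3.77e-17), with 579 to 954 reads per library at day 0 and 49 to 63 at day 12. Erlec1, an ER lectin, was 1.93-fold higher at day 1 (adjusted p = 6.74e-18) and 1.56-fold higher at day 12.

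Of 25 other ATF4 targets and amino acid response genes tested, 7 were lower and 4 higher at day 1, and 8 lower and 6 higher at day 12, with medians of -0.14 and -0.015. These are 28% and 16% at day 1 and 32% and 24% at day 12, beside those same shares of all genes. The 4 higher at day 1 were Slc7a11 at 2.25-fold, Psph at 1.74-fold, Atf3 at 1.69-fold with overlapping groups, and Phgdh at 1.58-fold. Among the 7 lower at day 1 Ndrg1 changed most, at 2.75-fold lower. At day 12 Phgdh, Psat1 and Psph, the 3 enzymes of serine synthesis, were 3.59-fold higher, 3.59-fold higher and 1.82-fold higher than at day 0 (adjusted p = 1.95e-21, 8.04e-20 and 1.57e-13). The amino acid carriers Slc7a5, Slc7a11 and Slc38a2 were the other 3, at log2 fold changes of 0.94, 0.77 and 0.78. Among the lower genes Gdf15, a secreted stress factor, was 5.34-fold lower at day 12 (log2 fold change -2.42, SE 0.099, adjusted p = 1.12e-16), and Stc2, a secreted glycoprotein, was 3.67-fold lower (adjusted p = 1.62e-19). Enzymes that make amino acids were also among the lower genes, with Pycr1, of proline synthesis, 2.58-fold lower and Cth, of cysteine synthesis, 2.69-fold lower (adjusted p = 2.96e-15 and 2.41e-11). Ndrg1, Ddit4, Cebpg and Vldlr were the other 4. Of 14 other sensors and regulators tested, 2 were lower at day 1, Atf6b and Bbc3, and 2 at day 12, Creb3l2 and Bbc3, with 0 higher. Each 2 of 14 is 14.3%, close to the 13.4% and 16.2% of all genes called lower. Over the same cultures the proliferation markers given above rose at day 12, and their part in these changes was not tested.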

How the data were processed

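Messenger RNA levels were measured by RNA sequencing of 15 libraries, 5 per group. The raw read counts per gene were made by the authors and are used as deposited. Per the labels, the authors aligned reads to mm10 with TopHat2 2.0.13 and Bowtie2 2.2.1 and counted them with HTSeq. The strand setting of the counting is not given in the sources used here. Deposited rlog values and the authors' DESeq2 fold changes and p-values were not used.

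The 15 libraries were grouped by days at 31°C as labelled. Genes were filtered with filterByExpr (minimum count 10), which kept 14293 of 18804. Counts were scaled by TMM (factors 0.946 to 1.09) and fitted in 1 model without covariates with edgeR 4.0.16 in R 4.3.3 (glmQLFit, glmQLFTest). The biological coefficient of variation was 5.25%. Calls required a Benjamini-Hochberg adjusted p under 0.05 over all genes tested and a fold over 1.5. The SE is the log2 fold change divided by the square root of F. Counting error was covered by this spread, and replicates differed by more than sampling noise (chi-square per degree of freedom 5.69 to 24.5 over 30 pairs). Deviations of same-numbered libraries of different groups correlated at -0.026 to 0.044 (median 0.019) over 15 pairs, and those of the other 60 pairs had a median of -0.002. No pair was over 0.1 and the labels tie the numbers to nothing shared, so the numbers were not taken as pairs. The fit was tested on simulated counts.

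Levels in every library are given for 14 of the 20 genes called in at least 1 comparison, by the size of the largest called change with at least 2 per role. The 33 genes, the roles and the other lists were chosen with earlier results of these data known. Alternatives were other scaling, other filters, DESeq2 1.42.0, other fold limits, a replicate block, the library number series in the titles, only the groups compared, and each library left out. Of the other listed genes, 3 had no match in the table and were not used here.

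Exons came from GENCODE M21 and promoter windows from RefSeq. The bases after the start matched a GENCODE transcript of the gene in 24 of 29 windows.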

Additional observations from a re-analysis of the deposited data

Results flagged for a closer look

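In 6 of 99 groups of 5 libraries, 1 library stood apart from the other 4 by Dixon's test, where chance alone gives about 1 in 20. Pdia3 at day 12 was at 745 CPM in replicate 1, and the others were at 775.2 to 786.8 CPM. Herpud1 was at 64.55 CPM in day 0 replicate 2, with the others at 68.54 to 69.8 CPM, and at 42.57 CPM in day 12 replicate 5, with the others at 45.15 to 45.92 CPM. Atf5 at day 0 was at 106.7 CPM in replicate 2, below the others at 113.5 to 115.8 CPM. Trib3 at day 1 was at 7.154 CPM in replicate 3, below the others at 8.873 to 9.388 CPM. Ern1 at day 1 was at 34.44 CPM in replicate 4, above the others at 30.14 to 31.16 CPM. Without day 12 replicate 5 the day 12 call of Herpud1 was lost, as given in the report.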

How the results depend on the processing

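Of the 99 fold changes of the 33 genes in 3 comparisons, 73 kept their direction and their side of the threshold under all 24 alternatives other than the fold limit, and 0 of the 36 called values reversed. Leaving out 1 library changed the call or direction of 6, each named in the report except Dnajb11. The fold limit mattered most. With no fold limit 7 of the 33 genes were higher and 24 lower at day 1, 3 and 27 at day 12, and 12 and 16 at day 12 against day 1. Of all 14293 genes tested, 5049 were then higher and 5177 lower at day 1, and 5608 and 5342 at day 12. Between the cooled groups these were 4908 and 4690. With a fold over 2 there were 0 of the 33 genes higher and 8 lower at day 1, 6 lower at day 12, and 0 and 0 between the cooled groups. Of all genes tested, 371 were then higher and 885 lower at day 1, and 924 and 1255 at day 12. Between the cooled groups these were 795 and 597. With total counts alone, 2 of the 33 were higher (Asns and Atf4) and 11 lower at day 12, and 5 were higher at day 12 than at day 1. Of all genes tested, 2982 were then higher and 1668 lower at day 12, and 2248 were higher at day 12 than at day 1. Without 1 library each, 12 to 13 of the 33 genes were lower and 1 higher at day 1, 16 to 17 lower and 0 higher at day 12, and 2 to 4 higher and 2 lower between the cooled groups. In the fit with the replicate block, 13 genes were lower and 1 higher at day 1, 17 lower and 0 higher at day 12, and 3 higher and 2 lower between the cooled groups, and no call of a gene changed. Of the 15 libraries, 10 correlated best with a library of their own number, which 2 of the 10 libraries of the other groups carry for each. This is a hint from the data and not from the design.

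Values that reversed were small and not called. Under total counts at day 12 they were Dnajb9 0.039, Dnajb11 0.087, Syvn1 0.146, Sel1l 0.039, Atf5 0.089 and Atf6 0.121, and the median of the sensors and regulators was 0.175. Between the cooled groups under total counts they were Hsp90b1 0.078, Dnajb11 0.167, Edem1 0.112, Chac1 0.05, Atf6 0.011, Ern1 0.098 and Ppp1r15b 0.037, with medians of 0.078 for the 33 genes, 0.041 for the degradation genes and 0.024 for the sensors and regulators. Total counts moved the median of all genes by the shifts given in the report. When the filter asked for an average of 10 CPM or more, the day 1 median of the sensors and regulators was -0.011 and Dnajb11 between the cooled groups 0.02, and with the library number series as covariate Dnajb11 was 0.00077. Leaving out 1 library moved Dnajb11 there over -0.021 to 0.013 and Eif2ak3 at day 1 over -0.049 to 0.0076. With only the larger library number series, Herpud1 at day 12 (-0.58) and Hspa5 between the cooled groups (0.58) were not called. Sdf2l1 between the cooled groups (0.62) gained a call there. The cause of these changes was not tested. For genes with few reads, such as the brown adipocyte markers, depth limits what can be seen.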
